A study of Mus musculus with 6 samples.

Results

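The collagen genes described here are the 44 genes, of 19752 measured on the array, whose only symbol in the platform's probe table has the form Col, a number, a and a number. The choice used names and no measured value. Of the 44 genes, 11 encode fibrillar chains, 6 encode the type IV chains of basement membranes and 27 encode other collagens, and 42 of them have 1 probe set on the array. The measurements came from skeletal muscle of mdx mice. Without dystrophin, the muscle of these mice becomes fibrotic as fibres degenerate and regenerate. The question, from the study's title and design, was what an antibody that depletes regulatory T cells changes in such muscle, and here it was asked of the collagens. In one group, 3 samples came from mdx mice given anti-CD25 (clone PC61, against the alpha chain of the interleukin-2 receptor). The 3 control samples came from mdx mice given rat IgG.

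Both groups carried the mdx background and received 2 injections, on days 17 and 20. The design text places dissection 7 days after the second injection, but the labels give every animal an age of 6 weeks, so the age at sampling is not settled by the sources used here. The labels call all animals male and do not state that the samples of a group are separate animals, and p-values therefore reflect the spread between the arrays at hand, part of which may be technical. The muscle that was taken is not named beyond skeletal muscle. The antibody acts on every cell that carries CD25, which activated conventional T cells can also do.

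Collagens are trimeric proteins of the extracellular matrix, wound from chains that repeat glycine at regular spacing. In muscle, fibroblasts and fibro-adipogenic progenitors make most of the type I and type III fibrils of the endomysium. Type IV collagen forms the network within the basement membrane of each fibre and capillary, and type VI collagen links that membrane to the fibrils. New chains are hydroxylated, folded and trimmed by a set of enzymes before lysyl oxidases cross-link them, and metalloproteinases and cathepsins break them down.

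All values are log2 of the deposited intensity, 1 array per sample, and a difference is the anti-CD25 mean minus the rat IgG mean. Array medians ran from 149.8 to 151.5 on the intensity scale, and with 3 arrays a group their number limits the precision. The arrays did not all look alike within a group. Xist, the RNA of the inactive X chromosome, lay at 11.77 to 11.94 on rat IgG 1, rat IgG 2, anti-CD25 1 and anti-CD25 2, and at 5.48 and 5.49 on rat IgG 3 and anti-CD25 3, where Eif2s3y, Kdm5d and Uty of the Y chromosome were high instead. This split does not match the label of male for every animal. The dim end of the arrays split in another way, with a lower quartile of intensity of 56.5 to 57.7 on rat IgG 1, rat IgG 2 and anti-CD25 3 and of 51.2 to 51.9 on the other 3 arrays. The myofibre markers Acta1, Ckm, Myh1, Myh4, Ttn, Tnnt3 and Myh2 all lay between 12.65 and 13.84 on every array and are defining transcripts of the labelled tissue. Of 4 regulatory T cell markers, 1, Ctla4, lay lower on every anti-CD25 array than on any rat IgG array, as 7.46% of all genes did, and its probe set was among the dimmest 30%. Foxp3 had a difference of -0.092 and the target gene Il2ra one of -0.0049, both with overlapping groups. The handling markers Fos, Egr1, Junb, Atf3 and Hspa1a were all highest on rat IgG 3, with a list deviation of 0.61 there and of -0.36 to -0.0036 on the other arrays. Without rat IgG 3 the median collagen difference given next was -0.116, and the part of handling in it was not tested.

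Collagen transcript levels in the anti-CD25 group lay close to those in the control group. The median difference of the 44 genes was -0.039, against -0.026 over all 19752 genes. None of the 44 passed limma's moderated test at an adjusted p of 0.05, and 1, Col23a1, had an unadjusted p under 0.05. Over all genes limma called 0 (0%) at the adjusted threshold and 1240 at an unadjusted p under 0.05, which is 6.28% of those tested. The smallest adjusted p of any gene was 0.750. The groups did not overlap for 2 collagens, Col23a1 and Col28a1, both lower with anti-CD25. No collagen lay apart on the high side. Over all genes 11.7% did not overlap, 7.46% on the low side and 4.28% on the high side, so 2 of 44 is no more than the background.

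The sign of the differences was mostly negative. The difference was below 0 for 38 of the 44 genes and above 0 for 6, while 58.9% of all genes lay below 0. After a further quantile normalization, which brought the arrays to one distribution, 36 of 44 collagens and 52.4% of all genes lay below 0. These signs are a description: single differences ran from -0.26 to 0.12, the direction of up to 14 genes turned when 1 array was left out, and no test was made over the members.

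The intervals state what these arrays could have missed. The moderated 95% interval lay within 1.5-fold in either direction for all 44 collagens and within 1.2-fold for 16, of which 6 were fibrillar, 0 were type IV and 10 were others. Among the 13 collagens whose probe sets were in the brightest of 4 equal bins of all genes by mean intensity, the interval bounds ran from 0.796-fold to 1.27-fold. These bounds say which sizes of change the intervals include, not which would have been called.

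**Figure D1:**
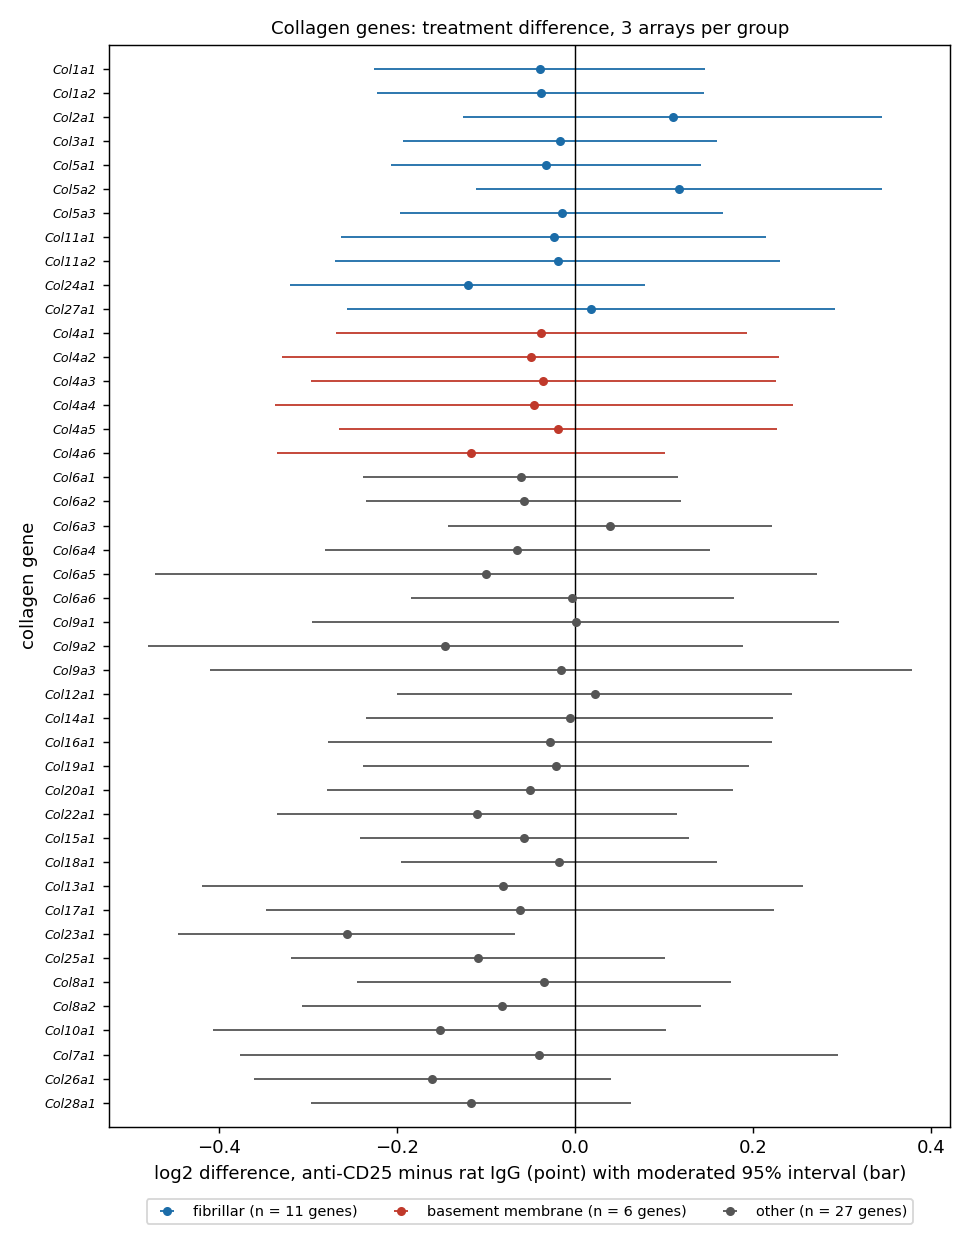
Log2 difference (anti-CD25 minus rat IgG, x axis) of each of the 44 collagen genes (y axis), with limma's moderated 95% interval as a bar; colours mark fibrillar, basement membrane (type IV) and other collagens. Every interval except that of Col23a1 crosses 0, and every point lies between -0.26 and 0.12.

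The fibrillar collagens, which form the tensile fibrils of scar and endomysium, had a median difference of -0.020, with 3 genes above 0 and 8 below. Col1a1, which encodes the alpha1 chain of type I collagen, measured 12.46, 12.56 and 12.56 on rat IgG 1 to 3 and 12.47, 12.57 and 12.42 on anti-CD25 1 to 3. The groups overlapped, and the difference was -0.040 with a 95% interval from -0.23 to 0.15, or 0.855-fold to 1.11-fold. Its partner chain Col1a2 measured 12.02, 12.05 and 12.06 with rat IgG and 11.98, 12.10 and 11.93 with anti-CD25. Here too the groups overlapped, with a difference of -0.039. Col3a1, the chain of the finer type III fibrils that accompany type I in young and healing tissue, measured 11.53, 11.41 and 11.50 against 11.49, 11.45 and 11.44. All 3 of its anti-CD25 values lay inside the range of the controls, and the difference was -0.017 with an interval from -0.19 to 0.16.

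The 120 bases before the annotated starts of Col1a2 and Col3a1 are shown for 2 bright fibrillar genes whose transcripts hardly differed. Nothing here ties these bases to the levels of the genes. Both stretches come from RefSeq (GRCm38.p6) and read on the plus strand, from chr6:4505498-4505617 for Col1a2 and from chr1:45311418-45311537 for Col3a1. Capitals mark the motif found, CCAAT in the first and TATAAA in the second.
Col1a2: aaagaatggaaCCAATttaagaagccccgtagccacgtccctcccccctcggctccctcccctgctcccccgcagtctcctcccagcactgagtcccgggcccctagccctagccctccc
Col3a1: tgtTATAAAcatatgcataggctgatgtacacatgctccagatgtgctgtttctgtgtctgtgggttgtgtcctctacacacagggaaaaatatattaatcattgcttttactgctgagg

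Windows of 300 bases, 250 before and 50 after the start, were found for 35 of the 44 collagens and searched on both strands. CCAAT, the box bound by the factor NF-Y, was present in 13 of the 35 (37.1%) and in 41.1% of all 27025 genes with a window. TATAAA, a form of the TATA box, was present in 5 (14.3%) and in 15.7% of all genes. GGGCGG, the GC box, was present in 22 (62.9%) and in 38.2% of all genes. A match describes the letters in these windows and is not a measured binding site.

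The remaining fibrillar genes encode chains that regulate fibril diameter or belong to cartilage-type fibrils. Col5a1, whose type V chain helps start fibrils, measured 8.65, 8.57 and 8.65 with rat IgG and 8.64, 8.56 and 8.58 with anti-CD25. It varied least of all 44 collagens, by 0.096 over the 6 arrays. Col5a2, the partner of Col5a1 in the common type V trimer, had the highest difference of the family, 0.12, with 9.28, 8.94 and 9.16 against 9.29, 9.18 and 9.25. The groups overlapped and rat IgG 2 was the low array. Col5a3, another type V chain, measured 8.40, 8.40 and 8.30 against 8.41, 8.37 and 8.28, a difference of -0.015.

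Among the chains of type XI and type II collagen, which build the thin fibrils of cartilage and also occur in tendon, no group stood apart. Col11a1 measured 8.06, 8.18 and 8.14 with rat IgG and 8.08, 8.30 and 7.93 with anti-CD25, so that the highest and the lowest value both fell in the anti-CD25 group. Col11a2 measured 7.88, 7.94 and 7.55 against 7.73, 7.77 and 7.81, and rat IgG 3 was lowest. Col2a1 measured 7.94, 7.996 and 7.67 against 7.95, 7.93 and 8.06, again lowest on rat IgG 3, with a difference of 0.11. The 2 late additions to the fibrillar class behaved in the same range. Col24a1 measured 7.16, 7.21 and 6.98 against 6.96, 6.99 and 7.04, a difference of -0.12, and Col27a1 measured 7.86, 7.97 and 7.55 against 7.79, 7.70 and 7.94, a difference of 0.018.

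The type IV genes all had differences below 0, from -0.12 to -0.019 with a median of -0.042, and none of their 6 intervals excluded 0. Col4a1 and Col4a2 encode the chains of the common basement membrane network and lie head to head on chromosome 8. Col4a1 measured 9.37, 9.60 and 9.71 with rat IgG and 9.46, 9.56 and 9.54 with anti-CD25, a difference of -0.038. Col4a2 measured 9.17, 9.54 and 9.65 against 9.38, 9.46 and 9.37, a difference of -0.050. In both genes rat IgG 3 was the highest array and rat IgG 1 the lowest, so all anti-CD25 values lay inside the range of the controls.

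The 2 genes deviated from their own means on the same side on 5 of the 6 arrays, and the deviations never differed by more than 0.087 although the genes ranged over 0.34 and 0.48. Col1a1 and Col1a2, which are encoded apart, lay on the same side on 6 of 6 arrays, with deviations never more than 0.047 apart. Col4a3 and Col4a4 lay on the same side on 5 of 6 arrays, and Col4a5 and Col4a6 on 6 of 6. The deviations within these 2 pairs lay further apart, by up to 0.18 and 0.17. Col6a1 and Col6a2 lay on the same side on 4 of 6 arrays, with a gap of up to 0.067. The stretch between the starts of Col4a1 and Col4a2 is shown to give their arrangement, and nothing here ties it to their levels. In RefSeq (GRCm38.p6) Col4a1 starts at 11312826 on the minus strand and Col4a2 at 11312805 on the plus strand, so that the 22 bases at chr8:11312805-11312826, given on the plus strand, begin both transcripts. Capitals mark a GC box.
Col4a1 and Col4a2: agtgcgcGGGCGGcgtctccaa

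The 4 other type IV genes encode chains of specialised membranes such as those of the glomerulus, and all 4 probe sets lay below the median brightness of all genes. Col4a3 measured 6.79, 6.73 and 6.46 with rat IgG and 6.48, 6.61 and 6.78 with anti-CD25. Col4a4 measured 6.58, 6.86 and 6.47 against 6.53, 6.45 and 6.79. Col4a5 measured 6.98, 6.92 and 6.82 against 6.87, 6.71 and 7.09. In each of these 3 genes, and in Col4a6 (6.28, 6.22 and 6.05 against 6.10, 5.95 and 6.15), rat IgG 1, rat IgG 2 and anti-CD25 3 all lay above the other arrays. These are the arrays with the higher lower quartile, and their treatments are mixed.

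Among the 27 other collagens the median difference was -0.058, with 3 genes above 0 and 24 below. Type VI collagen makes beaded filaments around the basement membrane of the fibre. Its chain genes Col6a1 and Col6a2 measured 10.38, 10.34 and 10.30 against 10.29, 10.33 and 10.22, and 10.60, 10.65 and 10.62 against 10.60, 10.61 and 10.49. Their differences were -0.061 and -0.058, with anti-CD25 3 the lowest array in both. Col6a3, which completes the common trimer, measured 10.90, 10.76 and 10.88 against 10.93, 10.86 and 10.86, a difference of 0.039. The 3 genes of the common type VI trimer thus lay within 0.061 of no difference, and their groups overlapped.

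Col6a4, Col6a5 and Col6a6 encode alternative chains that can take the place of alpha3. Col6a4 measured 6.5002, 6.52 and 6.31 with rat IgG and 6.38, 6.27 and 6.48 with anti-CD25, a difference of -0.065. Col6a5 measured 7.08, 7.08 and 6.55 against 6.74, 6.62 and 7.05, a difference of -0.10, with the same 3 arrays high. Col6a6 measured 8.38, 8.46 and 8.49 against 8.43, 8.39 and 8.51, a difference of -0.0028. Col6a5 and Col6a6 are the collagens with a second probe set, and the second sets did not repeat the first: that of Col6a5 was highest on rat IgG 3 (6.59), where the first set was lowest, and had a difference of -0.18, and that of Col6a6 had a difference of -0.17. The array order of Col6a5 is therefore uncertain.

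Col15a1 and Col18a1 encode the multiplexins, which tether basement membranes and whose ends release anti-angiogenic fragments. Col15a1 measured 10.02, 10.14 and 10.09 with rat IgG and 10.09, 10.05 and 9.95 with anti-CD25, a difference of -0.057. Col18a1 measured 8.18, 8.30 and 8.29 against 8.27, 8.23 and 8.22, a difference of -0.018. Both overlapped between groups and both intervals lay within 1.2-fold.

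Col23a1, which encodes a transmembrane collagen with a sheddable ectodomain, had the lowest difference of the family. It measured 7.53, 7.62 and 7.44 with rat IgG and 7.21, 7.31 and 7.29 with anti-CD25. The groups did not overlap. The difference was -0.26 (SE 0.083, 95% interval -0.45 to -0.067), with a limma adjusted p of 0.750. It was -0.31 among the 4 arrays with high Xist, -0.15 between the 2 with low Xist, and -0.23 with the kind of lower quartile as a block. Without 1 array it ran from -0.30 to -0.21, and limma's unadjusted p, 0.014 over all arrays, was 0.050 when rat IgG 2 was left out and 0.053 when anti-CD25 1 was. Col28a1, a collagen known from peripheral nerve, was the other gene without overlap. It measured 6.02, 5.92 and 5.92 against 5.84, 5.78 and 5.89, a difference of -0.12 that became -0.058 after a further quantile normalization, and its probe set was among the dimmest 30% of genes. Of the Schwann cell markers, the 2 measured, Mbp and Sox10, had differences of -0.11 and -0.21 with overlapping groups, and their part in the Col28a1 values was not tested.

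The other members gave no gene with separate groups. The 9 genes of the FACIT class, which decorate fibrils, had differences from -0.15 to 0.022, the transmembrane genes besides Col23a1 (Col13a1, Col17a1 and Col25a1) from -0.11 to -0.061 and the 3 network-forming genes (Col8a1, Col8a2 and Col10a1) from -0.15 to -0.035. Col7a1, which makes anchoring fibrils, had a difference of -0.040, and Col26a1 one of -0.16.

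**Figure D2:**
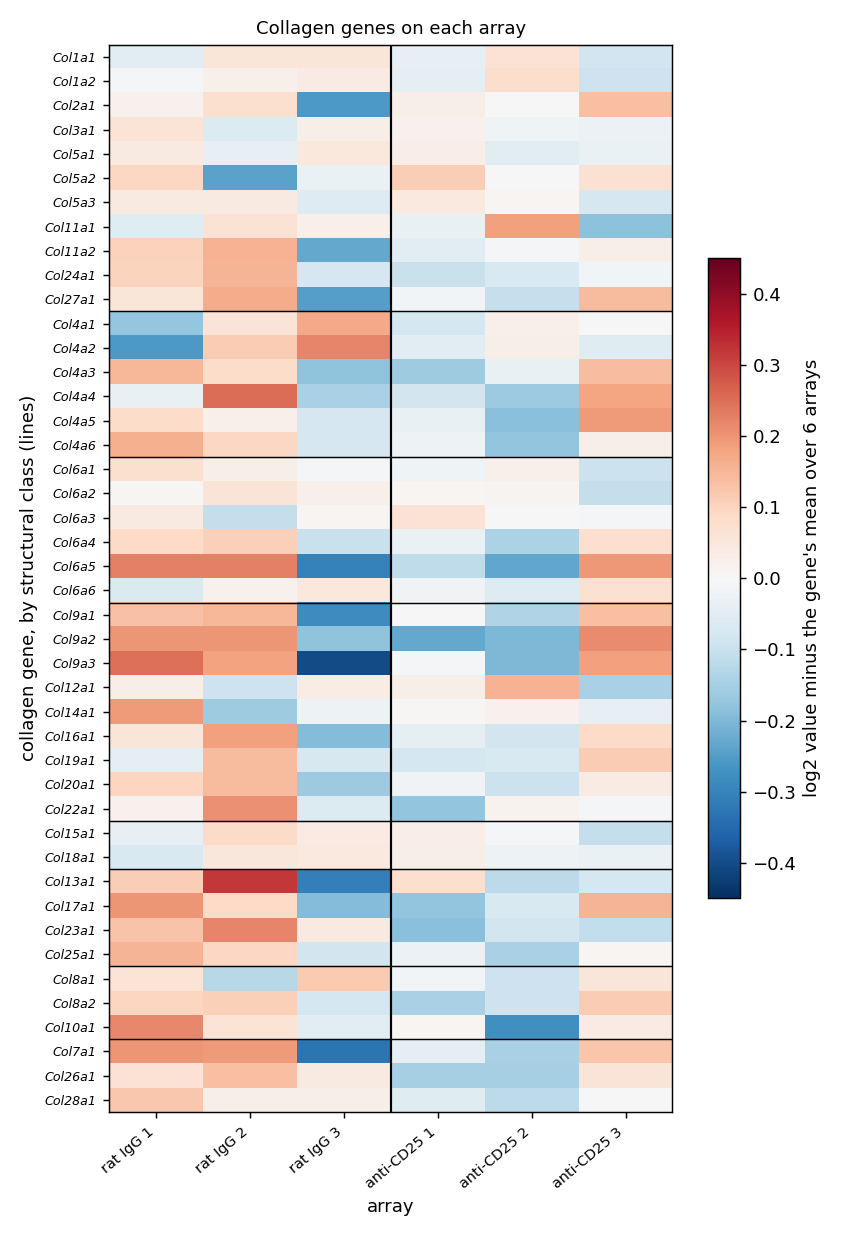
Log2 value of each of the 44 collagen genes (rows, divided by structural class with horizontal lines) on each of the 6 arrays (columns, rat IgG left of the vertical line), minus the gene's mean over the 6 arrays. Col23a1 is higher on the 3 rat IgG arrays, whereas Col6a5, Col9a2, Col9a3 and Col7a1 are high on rat IgG 1, rat IgG 2 and anti-CD25 3.

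Set beside each other by array, the classes did not order the arrays by treatment. The mean deviation of the 11 fibrillar genes from their own means was 0.037, 0.036 and -0.064 on rat IgG 1 to 3 and -0.0037, 0.0078 and -0.013 on anti-CD25 1 to 3. That of the 6 type IV genes was -0.012, 0.10 and -0.015 against -0.071, -0.086 and 0.080. For the 27 others it was 0.094, 0.094 and -0.089 against -0.047, -0.085 and 0.034. The fibrillar mean minus the type IV mean was 0.049, -0.067 and -0.049 with rat IgG and 0.067, 0.093 and -0.093 with anti-CD25. The fibrillar mean minus that of the others was -0.057, -0.058 and 0.025 against 0.044, 0.093 and -0.047. In both contrasts anti-CD25 1 and 2 lay above every control array and anti-CD25 3 did not, so the balance between classes overlapped between the groups.

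Many collagens outside the brightest bin were higher on the 3 arrays with the higher lower quartile. This order was singled out after the values were seen. All 3 arrays with the higher lower quartile lay above all 3 others for 21 of the 44 collagens (47.7%), against 18.2% of all genes. Of the 4 brightness bins, bin 1, the dimmest, held no collagen. In bin 2 the order was found in 13 of 14 collagens (92.9%, against 36.6% of all genes of that bin), in bin 3 in 8 of 17 (47.1% against 5.83%) and in bin 4 in 0 of 13 (0.567% of all genes there). The median excess of the 3 arrays was 0.20 for collagens and 0.13 for all genes in bin 2. It was 0.17 and -0.051 in bin 3, and -0.049 and -0.050 in bin 4.

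Many of these chains are best known from other tissues. The order included Col4a3, Col4a4, Col4a5 and Col4a6, the fibrillar genes Col11a2, Col24a1 and Col27a1, and 6 of the 9 FACIT genes. Large excesses were those of Col9a2 (0.41) and Col9a3 (0.41), both chains of cartilage type IX collagen, and Col7a1 (0.34). The excess of Col6a5 was 0.43 on its brighter probe set and -0.086 on the other. Col9a2 measured 7.76, 7.76 and 7.38 with rat IgG and 7.33, 7.36 and 7.77 with anti-CD25. Col9a3 measured 8.06, 7.99 and 7.41 against 7.80, 7.61 and 7.99. After a further quantile normalization 15 of 44 collagens (34.1%) and 9.01% of all genes had the order, 13 of the collagens having had it before and 2 not. In bin 2 it was then found in 5 of 14 collagens (35.7%, against 15.6% of all genes there). The median excess in that bin was 0.12 against 0.016 for all genes. In bin 3 it was found in 10 of 17 (58.8% against 8.97%), with a median excess of 0.20 against -0.0026. Of the 5 measured markers of cartilage and bone (of 6), 2 had the same order on the deposited values, Matn1 with an excess of 0.34 and Sp7 with 0.30, both on probe sets among the dimmest 30%. Bin 1, the dimmest, held Matn1 and Sp7, and 1482 of the 4938 genes of that bin had this order. The other markers did not have it, with -0.083 for Acan, -0.033 for Sox9 and 0.015 for Ibsp. After a further quantile normalization 1 of the 5 markers had the order. The mean deviation of that list ran from -0.036 to 0.060 with rat IgG and from -0.099 to 0.054 with anti-CD25, and its part in the order was not tested.

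**Figure D3:**
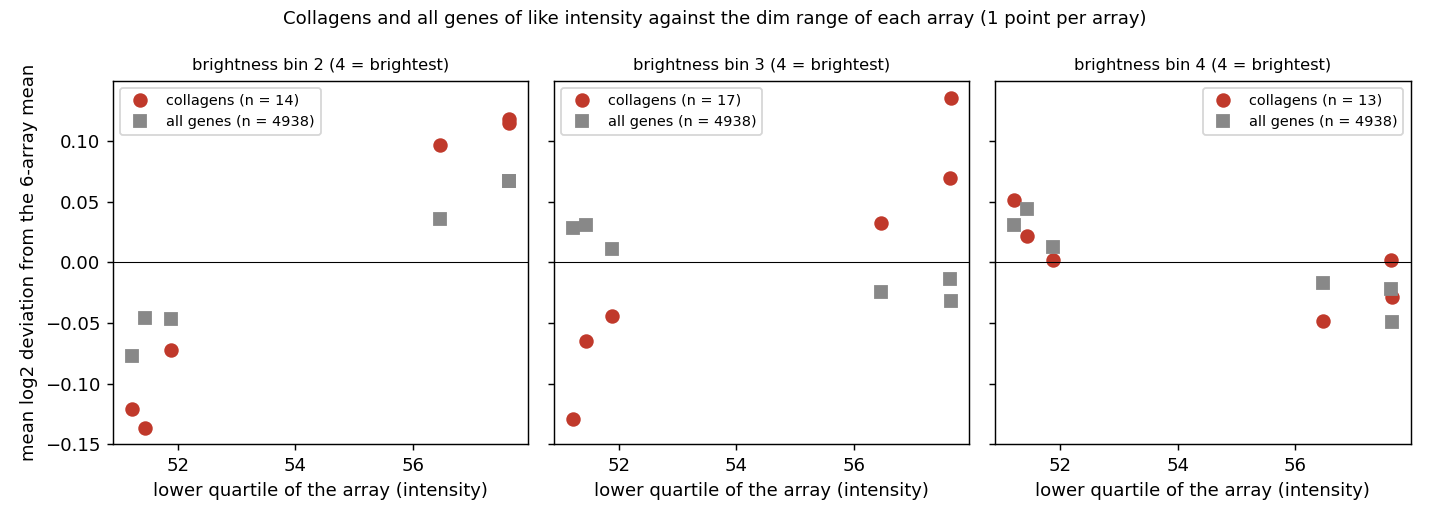
Mean log2 deviation from the 6-array mean (y axis) against the lower quartile of intensity of each array (x axis), 1 point per array, for the collagens (circles) and all genes (squares) in bins 2, 3 and 4 of mean intensity (panels from left to right). In bin 3 the collagens are higher on the 3 arrays at 56.5 to 57.7 than on the 3 at 51.2 to 51.9, while all genes of that bin are slightly lower there.

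Because these 3 arrays are 2 controls and 1 treated array, the order enters the treatment difference. With the kind of lower quartile as a block the median difference of the 44 collagens was -0.015, with 27 genes below 0, and limma called 0 collagens at the adjusted threshold and 1 at an unadjusted p under 0.05 (7.18% of all genes). It also enters a split by Xist. Among the 4 arrays with high Xist the median collagen difference was -0.16, with 34 genes below 0, and between the 2 arrays with low Xist it was 0.075, with 18 below 0. The interaction of treatment and Xist had an unadjusted limma p under 0.05 for 15 of 44 collagens and 19.4% of all genes. No collagen passed an adjusted p of 0.05, as 0.0405% of all genes did, and the smallest was 0.055 for Col6a5, on its brighter probe set. After a further quantile normalization the counts were 10 of 44 collagens against 12% of all genes, and 0 of 44 against 0.00506% at the adjusted threshold. The arrays that carry this interaction are exactly those that differ in lower quartile, so the 2 cannot be told apart.

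A different order was shared by Col1a1, Col1a2, Col11a1 and Col12a1, also singled out after the values were seen. Each was highest on anti-CD25 2 and lowest on anti-CD25 3. That is 4 of 44 collagens (9.09%) against 2.93% of all genes. All 4 lay in bins 3 and 4, where 4 of 30 collagens (13.3%) and 4.58% of all genes had this order. For Col1a1 the top place was narrow, at 12.57 against 12.56 on both rat IgG 2 and rat IgG 3. Col12a1, a FACIT collagen of tendon and fascia, measured 10.12, 10.003 and 10.13 with rat IgG and 10.12, 10.25 and 9.95 with anti-CD25. The mean of the tendon markers was also highest and lowest on these arrays. The mean deviation of the list of 6 (Scx, Tnmd, Mkx, Thbs4, Fmod and Kera) was -0.17, 0.13 and 0.14 against -0.027, 0.24 and -0.31, and 3 of the 6 (Tnmd, Mkx and Kera) were highest on anti-CD25 2 and lowest on anti-CD25 3. The same order was found in 2 of 4 regulatory T cell markers, 2 of 9 fibroblast markers and 3 of 30 biosynthesis genes. Kera, a corneal and tendon proteoglycan, had 9.64 on anti-CD25 2 and 8.57 on anti-CD25 3. Tnmd, which marks mature tendon cells, had 11.01 and 10.48. The part of tendon tissue in the spread of these collagens was not tested.

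**Figure D4:**
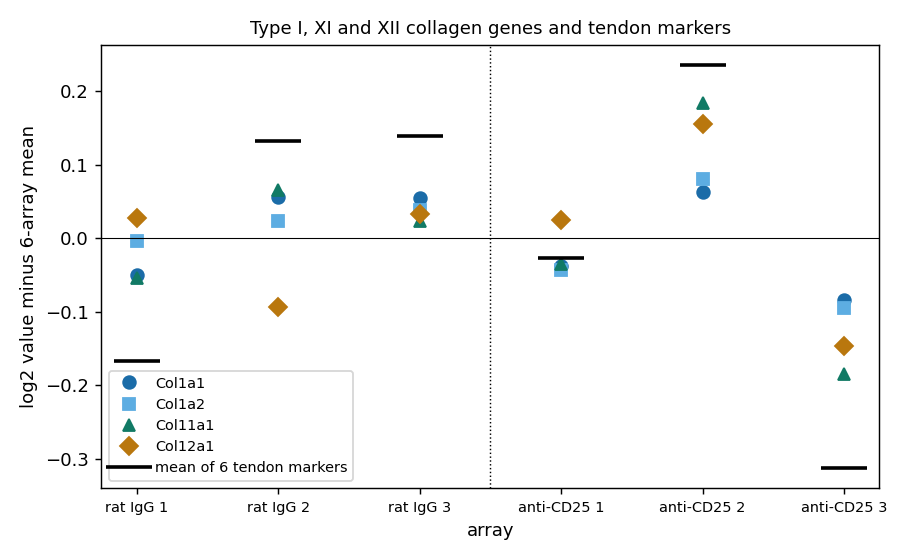
Log2 value minus the gene's mean over the 6 arrays (y axis) of Col1a1, Col1a2, Col11a1 and Col12a1 (symbols) on each array (x axis), with the mean of the 6 tendon markers as black bars. All 4 genes and the mean of the markers are highest on anti-CD25 2 and lowest on anti-CD25 3, both treated arrays.

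Cells that make collagen include fibroblasts, pericytes and endothelial cells. Of 9 measured fibroblast markers (of 10), 6 lay above 0 and 3 below, with a median difference of 0.025 and none at an unadjusted limma p under 0.05. Dcn, which encodes the proteoglycan decorin that binds type I fibrils, measured 13.04, 12.996 and 12.95 with rat IgG and 12.99, 13.02 and 12.97 with anti-CD25. The mean deviation of the fibroblast list ran from -0.049 to 0.067 with rat IgG and from -0.11 to 0.093 with anti-CD25. Of 6 smooth muscle and pericyte markers, 2 lay apart, Pdgfrb lower (-0.18, unadjusted limma p 0.040, adjusted p 0.750) and Cnn1 higher (0.20). Over all genes 7.46% lay apart on the low side and 4.28% on the high side. Of 8 endothelial markers, 1 lay apart, Cldn5 (-0.24), and none had an unadjusted limma p under 0.05. Their part in the collagen values was not tested. In whole muscle, fewer cells of a type and less RNA per cell cannot be told apart. Of the macrophage markers, 8 of 8 lay above 0 with a median of 0.35. An unadjusted limma p under 0.05 was reached by 4 of them (Adgre1, Cd68, Fcgr3 and Mertk), with an adjusted p of 0.750. On the high side 2.3% of all genes reached it. The groups lay apart for 1 of the 8, Mertk, as for 4.28% of all genes on the high side. The list deviations ran from -0.43 to -0.0054 in the controls and from -0.068 to 0.39 with anti-CD25. The median difference of the collagens beside these markers was -0.039.

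The enzymes and chaperones that build collagen lay on both sides of 0. Of 30 measured genes (of 33 listed), 17 were above 0 and 13 below, with a median of 0.028, and 0 passed limma's adjusted or unadjusted p of 0.05. Pcolce, the enhancer of the protease that trims procollagen, measured 11.32, 11.54 and 11.61 with rat IgG and 11.41, 11.55 and 11.37 with anti-CD25. Lox, the cross-linking lysyl oxidase, measured 11.09, 11.09 and 11.30 against 11.30, 11.29 and 11.31, a difference of 0.14. Rat IgG 3 lay with the treated arrays in Lox, so the groups overlapped. P4hb, a subunit of prolyl hydroxylase, had a difference of 0.12 with an interval from -0.068 to 0.31. Ppib, a proline isomerase of the folding complex, measured 11.23, 10.78 and 10.92 against 11.18, 11.01 and 11.15, a difference of 0.14. Groups stood apart for 2 of the 30 (11.7% of all genes), P4ha1 (0.12) and Loxl1 (-0.085), both with intervals that included 0.

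Collagen receptors did not pass either. Of 9 measured (of 10 listed), 3 lay above 0 and 6 below, with a median of -0.0085 and 0 at an unadjusted limma p under 0.05. Itgb1, the beta chain of all collagen-binding integrins, measured 11.15, 11.01 and 11.28 with rat IgG and 11.16, 11.22 and 11.27 with anti-CD25. Ddr2, the discoidin-domain receptor kinase for fibrillar collagen, had a difference of -0.041, and Itga1, the integrin chain with affinity for type IV collagen, one of -0.0080. Groups stood apart for 2 of the 9, Itga11 (-0.26) and Ddr1 (-0.15), both lower (7.46% of all genes), with intervals that included 0.

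Among the genes of collagen breakdown, 4 had an unadjusted limma p under 0.05 and none passed when adjusted. Of 10 measured (of 11 listed), 3 lay above 0 and 7 below, with a median of -0.048. An unadjusted limma p under 0.05 was reached by 1 gene on the high side, where 2.3% of all genes reached it, and by 3 on the low side (3.98% of all genes). All 4 had an adjusted p of 0.750. Mmp8, the neutrophil collagenase, measured 5.65, 5.85 and 6.10 with rat IgG and 6.09, 6.26 and 6.51 with anti-CD25, a difference of 0.42, and the groups overlapped at rat IgG 3. Its probe set was among the dimmest 30%. Mmp9, the gelatinase of leukocytes, measured 7.45, 7.57 and 7.86 against 7.26, 7.45 and 7.27, a difference of -0.30, with rat IgG 3 highest and the nearest arrays of the groups touching at 7.45. Without rat IgG 3 the difference of Mmp9 was -0.18. The interstitial collagenases Mmp1a and Mmp1b had differences of -0.36 and -0.36 without overlap, on probe sets also among the dimmest 30%. After a further quantile normalization these differences were -0.29 and -0.27. In bin 1, the dimmest, which held both, 560 of 4938 genes lay apart on the low side. There 404 genes had an unadjusted limma p under 0.05 on that side. Counting Mmp9, whose groups touched, 3 of the 10 lay apart on the low side, where 7.46% of all genes did. The brighter genes of the list showed no such difference: Mmp2, a gelatinase of fibroblasts, had -0.052, Mmp14, its membrane-bound activator, -0.049, and Ctsk, a lysosomal collagenase, 0.099.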

How the data were processed

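RNA of 6 samples was hybridised to Affymetrix arrays. The authors deposited 1 table of linear intensity values for 24922 probe sets, made with RMA in Affymetrix Power Tools, per the submitters' processing notes; their versions: not given in the sources used here. RMA draws dim values together, which understates their differences. The plan allowed for log2 or linear values, and log2 was taken here with no pseudocount. The platform table gave 1 symbol to 21425 probe sets, several to 1399 (not used) and none to 2098 not listed there; 21347 symbols matched the RefSeq table (GRCm38.p6) by Entrez identifier and 0 were updated. For 921 of 19752 genes the brightest of several probe sets was used.

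Groups followed the titles. Every gene was fitted with limma 3.58.1 in R 4.3.3 (two-sided, Benjamini-Hochberg over all 19752 genes, threshold 0.05), a step tested on simulated data. An exact permutation of 3 against 3 arrays cannot give a p below 0.1. Members and lists were chosen with earlier results of these data known. Values on every array are given for fibrillar, type IV, VI, XV and XVIII chains and for members without overlap; from each pathway list the 3 brightest genes and those with an unadjusted p under 0.05 are named, and others were chosen after their values were seen. Fkbp10, Adamts2, Loxl2, Gp6, Mmp15, Ly6a, Prx, Bglap and Hspa1b are not analysed here. Alternatives were a further quantile normalization, median centring, mean of probe sets, a 30th percentile filter, array weights, robust fitting with a variance trend, replicate and Xist blocks, the Xist kinds alone and leaving out each array; the lower quartile as a block or within its kinds was added after seeing the data.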

Additional observations from a re-analysis of the deposited data

How the results depend on the processing

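No collagen passed limma's adjusted p of 0.05 under any alternative that gave a test. Over all genes the count was 0 to 7 when 1 array was left out, with 7 genes (Ccr1, Has1, Mgat4a, Ms4a4a, Slc10a6, Socs3 and Timp4) without rat IgG 3 and 0 in the main setting and the others; the cause was not tested. With 1 array left out, the median collagen difference ran from -0.116 (without rat IgG 3) to -0.0189, the fibrillar one from -0.0266 to 0.0013, the type IV one from -0.116 to -0.0082, that of the others from -0.140 to -0.0285, biosynthesis from -0.0047 to 0.0547, receptors from -0.0392 to 0.0304 and degradation from -0.117 to 0.0478. Among the arrays with high Xist alone the medians were -0.161 for all collagens, -0.188 for type IV and -0.185 for the others. Between the 2 with low Xist they were 0.075, 0.185 and 0.0888, with -0.105 for biosynthesis, -0.107 for receptors and -0.149 for degradation. Among the arrays with a high lower quartile alone they were -0.0875 (fibrillar), 0.0403 (type IV), -0.0847 (receptors) and -0.136 (degradation), and among those with a low one 0.0512 (fibrillar). The sign turned in 2 of 44 collagens after a further quantile normalization, 2 after median centring, 5 with array weights, 13 with the lower quartile block, 5 to 14 without 1 array, and 0 with the mean of probe sets, a variance trend or the Xist block. The 30th percentile filter kept 43 collagens, without Col28a1. The numbers in the titles did not pair the arrays: deviations of like-numbered arrays correlated at 0.030, -0.0067 and -0.17 across genes, and with the number as a replicate block the collagen median was -0.0392, with 0 genes called and 0 signs turned. The median of all genes was -0.026 as deposited, -0.0068 after quantile normalization and -0.018 after centring.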
